A study of Mus musculus with 4 samples.

Results

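Lymphocytes and their precursors are a small fraction of the cells that remain when stem and progenitor cells are sorted from mouse spleen and bone marrow, and 323 barcodes selected for T, NK and innate lymphoid transcripts were examined here among 16261 barcodes that passed quality limits in 4 single-cell libraries. The members were chosen by their own transcripts. A barcode was kept when it held at least 1000 detected genes, at most 10% mitochondrial unique molecular identifiers (UMIs, each standing for 1 captured mRNA), at least 3 of the 8 genes Cd3e, Cd3g, Il7r, Nkg7, Il2rb, Gata3, Thy1 and Cd7, and no more than 1 UMI each of Cd79a, a B cell receptor component, and Elane, a neutrophil protease. These 8 genes are therefore described without any test, and nothing is read from their presence in the members.

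The libraries came from female C57BL/6J mice of 8 to 16 weeks. CS was spleen and CBM bone marrow of control mice, and TS and TBM were the same organs of mice that carried subcutaneous tumors grown from transplanted cells of the PyMT-B6 mammary carcinoma line. Tissue was digested with collagenase IV and DNase I and depleted of cells bearing mature lineage markers, which were bound by biotinylated antibodies and removed on streptavidin beads. Lineage-negative CD45+ c-Kit+ cells, with or without Sca-1, and CD45- stromal fractions were then sorted and pooled in equal ratio, so a share of barcodes is a share of that pool and not of the organ. CD45+ cells with mature lineage markers or without c-Kit were thus selected against. The markers that the lineage antibodies bind were not listed in the sources used here, so whether they cover NK cells is not known. Each group is 1 library, and the number of mice behind a library was not given in the sources used here. No difference between libraries therefore has a replicate check, no p-value is given, and every interval covers counting error only.

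T cells recognise antigen through a receptor of alpha and beta chains, or of gamma and delta chains, which signals through the CD3 proteins. Natural killer (NK) cells kill without such a receptor and carry Ncr1 and the Klr receptors, while innate lymphoid cells (ILCs) secrete cytokines in tissues and depend on Gata3, Rora, Id2 and Il7r. All descend from lymphoid progenitors that express Il7r, Kit and Flt3, and early T lineage precursors switch on Tcf7, Gata3 and Bcl11b and begin to rearrange the beta, gamma and delta loci before the alpha locus. Il2ra (CD25) marks a stage of those precursors as well as activated and regulatory T cells.

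The 4 libraries held 101811035 to 176094297 UMIs in all. Members numbered 140 of 3236 barcodes in CS, 110 of 5188 in TS, 41 of 3497 in CBM and 32 of 4340 in TBM. Their share was 4.33% in CS (exact Clopper-Pearson 95% interval 3.65 to 5.09%) and 2.12% in TS (1.75 to 2.55%). In marrow it was 1.17% in CBM (0.843 to 1.59%) and 0.737% in TBM (0.505 to 1.04%). The spleen of control mice thus had the highest share, and the intervals of CS and TS did not overlap. A member held a median of 12424 UMIs in CS, 16542.5 in TS, 6420 in CBM and 9329 in TBM, below the medians of 13841 to 27184 UMIs of the other barcodes. No barcode was a member in more than 1 library, and 1 member of CS or TS shared its barcode with a non-member barcode of the other library.

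The label of T, NK and innate lymphoid cells held only in part. Clusters with the markers of mature T, innate lymphoid or NK cells held 29, 18 and 10 of the 140 CS members and 16, 5 and 2 of the 110 TS members, and 2 marrow members in all. The members were grouped into 10 clusters by their other variable genes, without the 8 genes of the rule, and named from marker lists. Together with a lymphoid progenitor-like cluster and a dividing cluster that carried T cell receptor beta and gamma transcripts, these make 5 clusters, called lymphoid here, with 178 members: 87 of 140 in CS (62.1%, 53.6 to 70.2%), 86 of 110 in TS (78.2%, 69.3 to 85.5%), 2 of 41 in CBM and 3 of 32 in TBM. The other 145 members sat in clusters led by genes of basophils or mast cells, of stem cells, of erythroid cells or of dendritic cells. Because the clusters were drawn from the same cells, their leading genes describe them and are not findings.

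**Figure D1:**
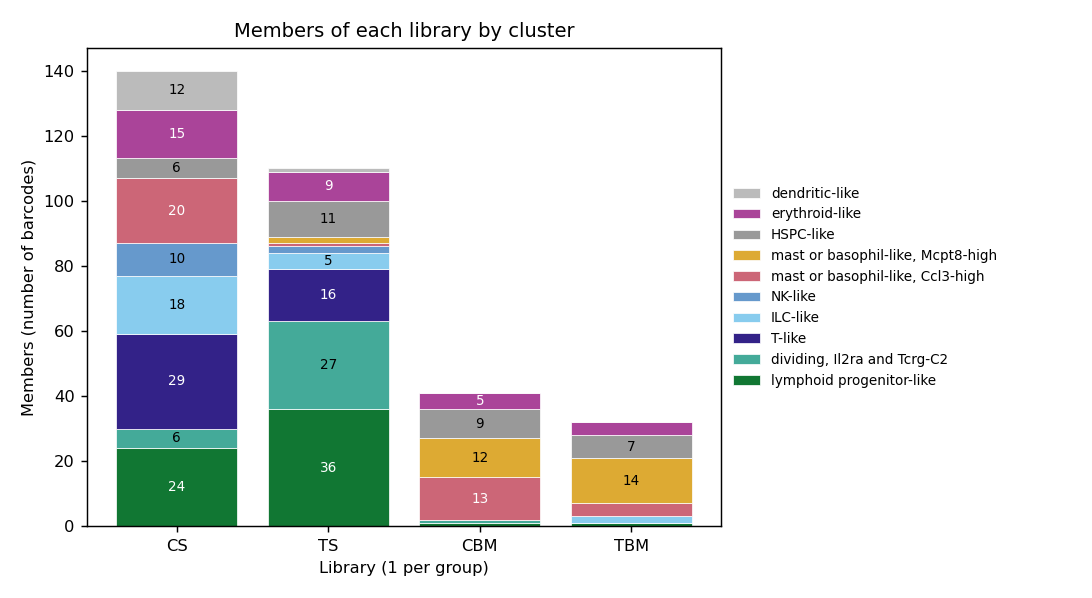
Number of members (y axis) in each of the 4 libraries (x axis), stacked by cluster; numbers are printed for clusters of at least 5 members. The lymphoid progenitor-like and dividing clusters make up 63 of 110 members in TS and 30 of 140 in CS, and the basophil-like and HSPC-like clusters make up most of CBM and TBM.

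The largest lymphoid cluster, with 62 members (24 CS, 36 TS, 1 CBM, 1 TBM), was led by Dntt, the terminal transferase that adds bases at antigen receptor joints, Ly6d, a surface marker of lymphoid-committed progenitors, and Arpp21, and is called lymphoid progenitor-like. Not all of its cells held these genes. Dntt was found in 23 of 24 CS cells and 11 of 36 TS cells, and Ly6d in 21 and 27. A second cluster of 34 members (6 CS, 27 TS, 1 CBM) was led by histone genes, Top2a, Il2ra and Tcrg-C2. It had no lymphoid progenitor marker among its 10 leading genes and less Dntt (50.8 CPM, where CPM, the standard depth-scaled unit, divides the UMIs of a gene by all UMIs of the summed cells) than the first cluster (362 CPM), and it is called here the dividing cluster. Both held transcripts of the T cell receptor beta constant genes (Trbc1 957 and 707 CPM, Trbc2 796 and 579 CPM), of the gamma constant genes (Tcrg-C2 325 and 444.5 CPM), and of Tcf7 (376 and 224 CPM) and Bcl11b (298 and 205 CPM). The alpha constant gene Trac was at 10.4 and 0.924 CPM there, and Cd3d was at 19.1 and 2.77 CPM. Receptor beta and gamma transcripts were thus present with hardly any alpha or CD3 transcripts. This was not particular to these clusters. The ILC-like cluster described below held Trbc2 at 606 CPM and Tcrg-C1 at 544 CPM, with Trac at 15.6 and Cd3d at 25.01 CPM. The NK-like cluster held Trbc2 at 871 CPM, with Trac at 19.5, Cd3d at 6.50 and Tcrg-C1 at 39.0 CPM. Trbc1 and Trbc2, and likewise the Tcrg-C genes, are near-identical copies whose reads the counting may have divided between them.

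The T-like cluster of 45 members (29 CS, 16 TS) was the lymphoid cluster with high Cd3d (766 CPM), Cd3e (353 CPM) and Trac (404 CPM). It was led by Cd8b1 and Lef1, a transcription factor of naive T cells, and had no UMI of Il2ra. The ILC-like cluster of 25 members (18 CS, 5 TS, 2 TBM) was led by Rora and also by Icos, a costimulatory receptor, and Zbtb16, the factor PLZF of innate lymphoid precursors. It held 1363 CPM of Rora, 503 of Gata3, 1528 of Il7r and 338 of Kit, against 25.01 of Cd3d. The NK-like cluster of 12 members (10 CS, 2 TS) was led by Ncr1, Klrc2, Xcl1 and Klrk1, and held 891 CPM of Ncr1, 832 of Il2rb and 2314 of Ccl5. Kit was at 384 CPM in the NK-like cells and at 2.97 CPM in the T-like cells. Cd3e, Gata3, Il7r and Il2rb are genes of the rule, so their levels are given as a description only and do not support these names.

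**Figure D2:**
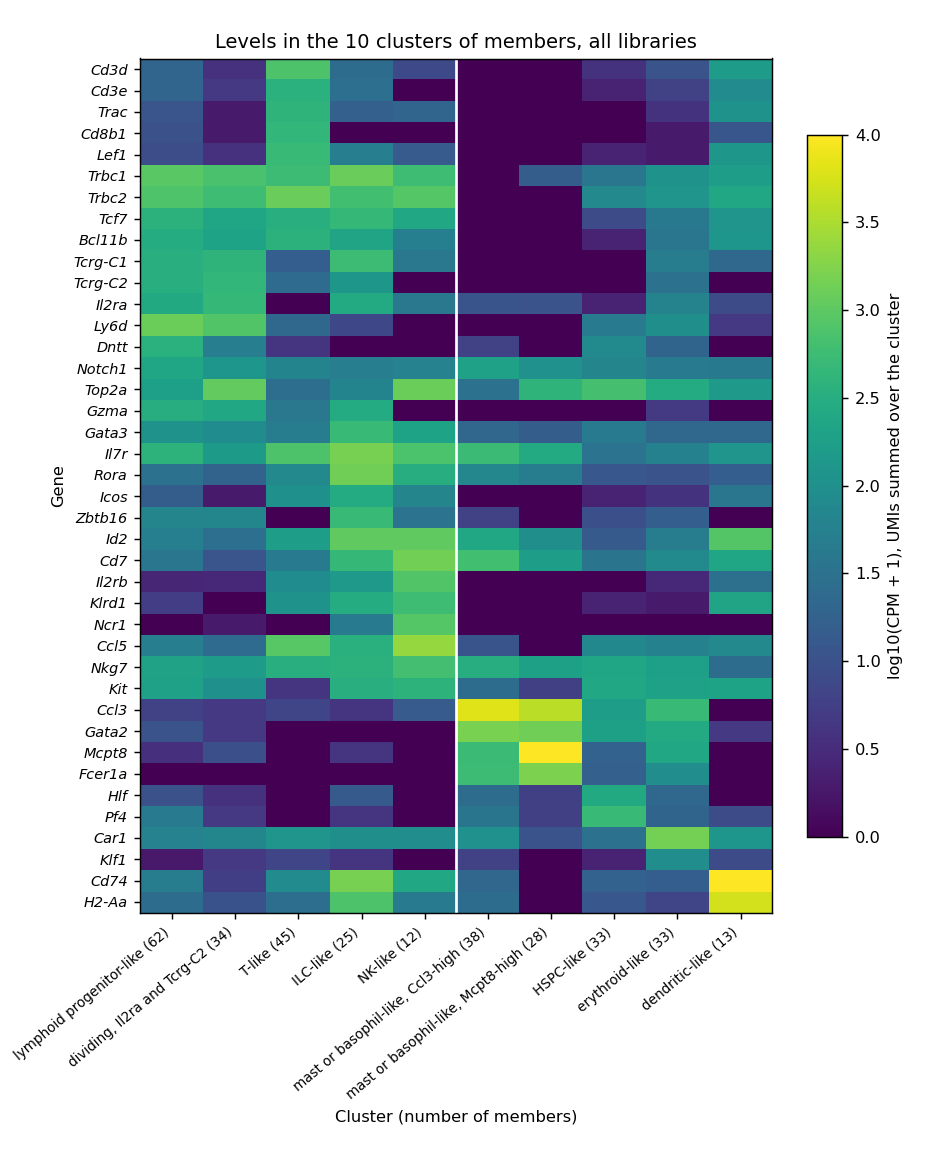
Heatmap of 40 genes (rows) in the 10 clusters of members from all libraries (columns, number of members in parentheses), colored by log10(CPM + 1) of the UMIs summed over each cluster; the white line separates the 5 lymphoid clusters on the left. Trac and Cd3d are high in the T-like cluster, while Trbc1 and Trbc2 are high in all 5 lymphoid clusters.

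Of the clusters of other lineages, 2 were named for mast cell or basophil genes. The first (38 members: 20 CS, 1 TS, 13 CBM, 4 TBM) had 6435 CPM of the chemokine Ccl3 and 1584 CPM of Gata2, and the second (28 members: 2 TS, 12 CBM, 14 TBM) had 10820 CPM of the basophil protease Mcpt8. Neither held a UMI of Cd3e, Trac or Trbc2. Of the 8 genes of the rule, Il7r, Cd7 and Nkg7 were the highest in the first, at 539.6, 625 and 313 CPM. An HSPC-like cluster (33 members: 6 CS, 11 TS, 9 CBM, 7 TBM) was led by Pf4 and Hlf. An erythroid-like cluster (33 members: 15 CS, 9 TS, 5 CBM, 4 TBM) was led by Car1, and a dendritic-like cluster (13 members: 12 CS, 1 TS) by Cd74 and H2-Aa. Mast cell or basophil genes were also found in the erythroid-like cluster. It held 252.5 CPM of Mcpt8 (15 of 33 cells), 90.9 of Ms4a2 (18 cells), 281.5 of Gata2 and 493 of Ccl3. The dendritic-like cells also held 163 CPM of Cd3d and 108.5 CPM of Trac, and whether those barcodes each hold a single cell was not tested.

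In marrow, defining T and NK genes were at 0 or few UMIs over all members. CBM members had 0 UMIs of Cd3d, Trac, Trbc2, Klrd1 and Eomes and 1 of Ncr1, and TBM members had 2, 0, 6, 1, 1 and 0 UMIs of the same genes in that order. Of the 20 receptor and signaling genes 10 were detected in CBM and 15 in TBM, summing to 305 and 323 CPM. The 14 NK genes summed to 244 and 233 CPM, above the 100.0 CPM of TS, and 101 of the 120 UMIs in CBM and 77 of the 93 in TBM were Il18rap, a chain of the interleukin 18 receptor. The summed level of the 11 mast and basophil genes was 6732 CPM in CBM and 17860 CPM in TBM, compared with 737 CPM in CS and 373 in TS. With 41 and 32 members, under the minimum of 50 each, TBM was not compared with CBM.

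Nkg7, a granule protein of cytotoxic lymphocytes, was common outside the members and in free RNA. It was at 211 CPM in the CS members and 219.5 CPM in the TS members, against 216.5 and 149 CPM in free RNA, the pooled UMIs of barcodes with at most 100 UMIs. The other barcodes held 142 CPM in CS and 111 in TS. It was detected in 72.9% of CS members and in 61.95% of the other CS barcodes, and in 87.3% and 54.4% in TS. In marrow it was detected in 90.2% and 56.7% in CBM and in 93.75% and 69.4% in TBM. These shares are unthinned, and members were shallower than the other barcodes. At 2000 UMIs it was detected in 32.1% of CS members and 30.9% of TS members, and in 20.6% and 7.36% of the erythroid barcodes. The remaining 7 genes were above free RNA in spleen, as in Il7r with 515 CPM in CS members against 7.30 CPM in free RNA. When at least 3 of those 7 were required instead, 91 members were left in CS, 73 in TS, 8 in CBM and 4 in TBM. Of the members, 70 in CS and 44 in TS had exactly 3 of the 8 genes, and those held 399 and 499.6 CPM of Trbc2. Just outside the rule, the 369 CS and 268 TS barcodes with exactly 2 of the genes held 19.5 and 58.9 CPM of it.

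As a share of all barcodes, the T-like, ILC-like and NK-like cells were scarcer in TS than in CS, while the progenitor-like and dividing cells were not. T-like cells made up 0.896% of CS barcodes (0.601 to 1.29%) and 0.308% of TS barcodes (0.176 to 0.5003%). ILC-like cells made up 0.556% of CS (0.330 to 0.878%) and 0.0964% of TS (0.0313 to 0.225%). NK-like cells made up 0.309% of CS (0.148 to 0.568%) and 0.0386% of TS (0.00467 to 0.139%). In these 3 clusters the intervals of the 2 libraries did not overlap. Neither the NK-like nor the ILC-like cells formed a cluster of their own at resolution 0.5, where the ILC-like joined the dendritic-like cells. The progenitor-like and dividing clusters together made up 0.927% of CS (0.626 to 1.32%) and 1.21% of TS (0.934 to 1.551%), and these intervals overlapped. The dividing cluster alone was at 0.185% in CS (0.0681 to 0.403%) and 0.520% in TS (0.343 to 0.756%), with overlapping intervals, and the progenitor-like cluster alone was at 0.742% and 0.694%. Cluster sizes depend on genes that differ between the libraries, on the sort and on depth, and the part of each was not tested. A count that uses no clustering took members with at least 2 of 10 T cell receptor and CD3 genes. These include Cd3e and Cd3g, which the rule also used. A member can thus pass on genes of the rule alone, and the count is not independent of the selection. It found 95 of 140 in CS (67.9%), 91 of 110 in TS (82.7%), 1 of 41 in CBM and 3 of 32 in TBM.

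**Figure D3:**
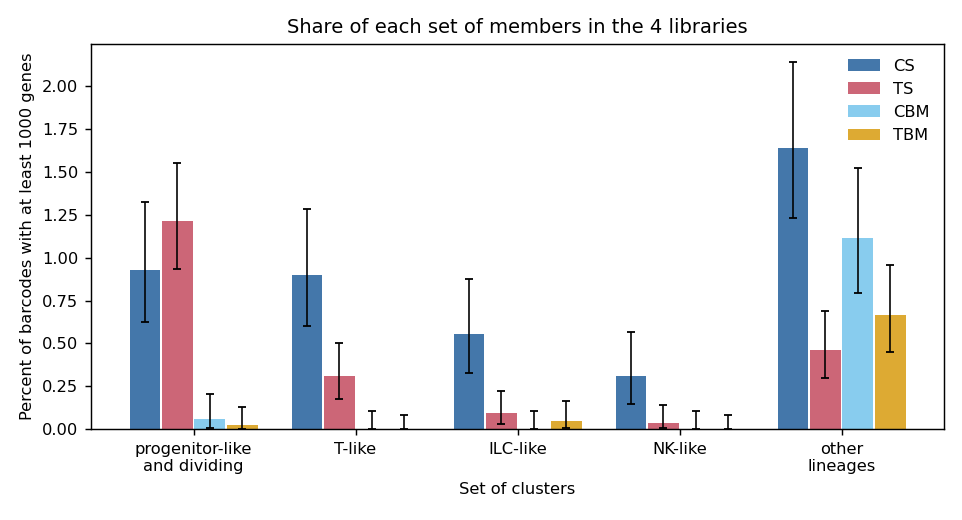
Share of all barcodes with at least 1000 genes (y axis, percent) that fell in each set of member clusters (x axis) in the 4 libraries; bars start at 0 and error bars are exact 95% binomial intervals, which cover counting error only. The progenitor-like and dividing set is at 0.927% in CS and 1.21% in TS, and the T-like, ILC-like and NK-like sets are lower in TS than in CS.

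TS was then compared with CS over all members, by the ratio of CPM of the UMIs summed over 110 and 140 members. A gene was called when its mean over the 2 libraries was at least 20 CPM and the ratio at least 2-fold. Of 6260 genes that met the mean, 102 (1.63%) were called higher and 333 (5.32%) lower in TS, and the median log2 ratio was -0.03. These counts changed with the choice of rule, scaling and minimum, by the values given in the closing section. The cluster makeup differed between the libraries, so results below are set beside their values in the progenitor-like and dividing clusters combined (30 CS, 63 TS). There, 145 of 6093 genes (2.38%) were called higher and 235 (3.86%) lower. Over all 5 lymphoid clusters (87 CS, 86 TS), 135 of 6185 genes (2.18%) were called higher and 308 (4.98%) lower.

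Gamma chain genes of the T cell receptor were higher in TS over all members, while Trac and Cd3d were lower. Tcrg-C1 and Tcrg-C2, the gamma chain constant genes, were at 136 and 112 CPM in CS and at 331 and 307.5 CPM in TS, log2 ratios of 1.28 (1.09 to 1.47) and 1.45 (1.25 to 1.66). They were the 2 genes called among 5 measured of the gamma-delta list. Within the progenitor-like and dividing cells neither reached 2-fold, at 0.38 and 0.65, and Tcrg-C2 turned to -0.05 when the rule was applied after thinning barcodes to 2000 UMIs, which left 47 members in CS and 16 in TS. Over all members the beta chain genes hardly differed, with Trbc1 at 612 CPM in CS against 565 CPM in TS and Trbc2 at 574 and 523 CPM. The log2 ratio of Trbc1 of -0.12 turned to 0.15 with the mean of single-member CPM and to 0.31 with members thinned. Trbc1 was lower in TS within the progenitor-like cluster (1117 CPM in CS, 845 in TS) and the dividing cluster (844 and 679 CPM). Over the cells of these 2 clusters the median of Trbc2 was 1115 CPM in CS and 623 CPM in TS. Of 17 measured genes for the receptor and its signaling, 6 were called lower and 0 higher, among them Cd3d (104 CPM in CS, 43.99 in TS), Trac (61.1 and 19.5 CPM) and Lef1 (73.5 and 24.5 CPM). Within the progenitor-like and dividing cells 0 of 9 measured were called, and Cd3d and Trac were each below the minimum. The lower Cd3d and Trac in TS thus accompanied fewer T-like cells, and their cause was not tested.

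NK receptor genes were lower in TS than in CS, as the share of NK-like cells was, and over summed members fewer cells of a type and less RNA per cell cannot be told apart. Of 6 measured NK genes 5 were called lower and 0 higher, with a list median of -3.07. Klrd1 (CD94) was at 109 CPM in CS (95.9 to 122 CPM) against 11.1 CPM in TS (7.12 to 16.5 CPM), a log2 ratio of -3.29. Ncr1, which encodes NKp46, was at 57.0 and 6.02 CPM, and 12 members held it in CS and 2 in TS (9 and 2 after thinning to 2000 UMIs). In the progenitor-like and dividing cells Ncr1 was 0 in both libraries, and no NK gene reached the minimum. Free RNA held 9.47 CPM of Klrd1 in CS and 0.277 CPM in TS, so the pool around the cells differed in the same direction.

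Gzma, the gene of granzyme A, went the other way and had the highest ratio among the genes named by rule. It lies on chromosome 13 of GRCm38, positions 113093825 to 113100981. It was at 37.2 CPM in CS (29.9 to 45.7 CPM) against 294.5 CPM in TS (272 to 318 CPM), a log2 ratio of 2.99 (2.67 to 3.32). It was found in 8 of 140 members in CS and 38 of 110 in TS. Free RNA held 1.78 and 6.93 CPM. In the progenitor-like cluster 3 of 24 CS cells and 17 of 36 TS cells held it, at 28.4 and 599 CPM, and in the dividing cluster 2 of 6 and 15 of 27 cells did, at 157 and 287 CPM. The NK-like cluster held 0 UMIs of Gzma in either library. The ILC-like cluster held 91 UMIs of Gzma (284 CPM) in 8 of 25 cells over all libraries. After each member was thinned to 2000 UMIs to set depth equal, 2.86% of CS members (0.784 to 7.15%) and 22 of 110 TS members (12.98 to 28.7%) had a Gzma UMI (5.71% and 34.55% unthinned), beside 0.0722% and 0.0701% of the erythroid barcodes of the same libraries. Other genes of the cytotoxic list were lower or within 2-fold, with 213 UMIs of Gzmb in CS and 54 in TS over all members, a log2 ratio of -1.81. Most Gzmb UMIs lay outside the lymphoid clusters. Over all libraries the erythroid-like cluster held 190 and the mast or basophil-like clusters 16 and 22. The progenitor-like, dividing, ILC-like, T-like and NK-like clusters held 23, 21, 9, 3 and 0. Gzmb was turned around in the progenitor-like and dividing cells, at 5.05 and 27.6 CPM from 4 and 38 UMIs.

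Some ILC and innate precursor genes, led by Rora and Id2, were lower in TS over all members. Rora, a nuclear receptor that ILC2s need, was at 189.9 CPM in CS against 42.1 CPM in TS, a log2 ratio of -2.17 (-2.51 to -1.84). Id2, an inhibitor of E proteins, was at 324 and 65.3 CPM, and Zbtb16 was at 89.2 and 38.4 CPM. Id2 was not confined to ILC-like cells. Over all libraries that cluster held 343 UMIs of it, the NK-like cluster 162 and the dendritic-like cluster (12 CS, 1 TS) 234. The Ccl3-high mast or basophil-like cluster (20 CS, 1 TS) held 50. Of 5 measured genes each, 2 of the ILC2 list (Rora and Icos) and 3 of the precursor list (Zbtb16, Id2 and Ets1) were called lower and 0 higher. Rora and Id2 were at 22.7 and 41.6 CPM in the progenitor-like and dividing cells of CS and at 13.8 and 38.5 CPM in those of TS, with log2 ratios of -0.72 (-1.73 to 0.30) and -0.11 (-0.77 to 0.56). Zbtb16 was lower there as well, at 83.3 and 37.0 CPM. On the ILC3 list Ltb, a lymphotoxin, was called lower (313 and 82.4 CPM), and Tnfsf11, the cytokine RANKL, was called higher (14.0 and 40.8 CPM). Tnfsf11 was also higher within the progenitor-like and dividing cells, at 10.1 CPM from 8 UMIs in CS and 58.1 CPM from 80 UMIs in TS. Id2 in free RNA was at 89.6 CPM in CS against 9.70 CPM in TS, and with 10% of the members' UMIs subtracted as free RNA the log2 ratio of Id2 was -2.29 in place of -2.31.

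The receptors of the common gamma chain family and their signaling genes included 3 that were called higher in TS and 0 lower, of 14 measured. Il2ra, the alpha chain of the interleukin 2 receptor on chromosome 2 of GRCm38, positions 11642807 to 11693193, was at 109.8 CPM in CS (97.0 to 124 CPM) against 329 CPM in TS (305 to 354 CPM). Socs2 and Cish, feedback inhibitors that STAT5 induces, were at 8.26 and 19.8 CPM in CS and both at 43.5 CPM in TS. Within the progenitor-like and dividing cells Il2ra was at 236 and 457 CPM (log2 ratio 0.96, 0.72 to 1.20), Socs2 at 5.05 and 57.4 CPM (3.51, 2.09 to 5.42) and Cish at 12.6 and 48.65 CPM (1.95, 0.98 to 3.07). In the progenitor-like cluster alone Il2ra was at 147.5 CPM in CS against 407.5 CPM in TS, and in the dividing cluster at 452.5 and 492 CPM. With members thinned to 2000 UMIs, 7.86% in CS (3.99 to 13.6%) and 32.7% in TS (24.1 to 42.3%) had an Il2ra UMI (25.7% and 51.8% unthinned). After thinning, none of 1386 CS and 2852 TS erythroid barcodes had one (0.144% and 0.666% unthinned), which allows shares of up to 0.216% and 0.105% with a UMI at that thinned depth only. In the progenitor-like and dividing cells 2 of 15 measured genes of this list (Socs2 and Cish) were called higher and 1 (Il21r) lower. Of the genes the rule used, given as a description only, Il7r was at 515 CPM in CS against 159.7 CPM in TS, Il2rb at 79.3 and 9.72 CPM and Cd7 at 235 and 31.0 CPM.

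Among genes with a mean of at least 100 CPM, major histocompatibility complex (MHC) class II genes and chemokine genes had the lowest ratios over all members. Ccl3 was at 461 CPM in CS against 52.3 CPM in TS and Ccl4 at 477 and 45.4 CPM. Over the 5 lymphoid clusters Ccl3 had 7 UMIs in CS and 8 in TS, a log2 ratio of 0.06. H2-Aa, an MHC class II chain, was at 697 and 46.8 CPM and Cd74, its invariant chain, at 1315 and 113 CPM. Free RNA held 541 and 23.0 CPM of H2-Aa in the same libraries, so the RNA around the cells differed likewise. Over the 5 lymphoid clusters H2-Aa was at 185 and 25.2 CPM, and 12 cells of the ILC-like cluster (18 CS, 5 TS, 2 TBM) held 247 UMIs of it. The dendritic-like cluster (12 CS, 1 TS) held 1476. In the progenitor-like and dividing cells it was at 22.7 and 14.5 CPM. With 10% of UMIs subtracted as free RNA the log2 ratio of H2-Aa over all members was -3.85 in place of -3.90. Cd74 turned to 0.99 in the progenitor-like and dividing cells and to 0.19 when the rule was applied after thinning. Ccl4 was lower in those cells too, at 58.0 and 16.7 CPM. Of 8 measured cytokine and chemokine genes 6 were called lower and 0 higher, and Ccl5 was among them at 310 and 85.7 CPM. Over the 5 lymphoid clusters 3 of 6 (Ccl4, Ccl5 and Xcl1) were called lower, and in the progenitor-like and dividing cells 1 of 5 (Ccl4). Ccl3 and Ccl5 changed direction in the progenitor-like and dividing cells, where Ccl5 had 29 UMIs in CS and 55 in TS. Ccl3 also changed direction with at least 4 of the 8 genes and with the rule applied after thinning. Ccl3 and Ccl4 were highest in the Ccl3-high mast or basophil-like cluster (20 CS, 1 TS), and 6 of 7 measured mast and basophil genes were called lower with them over all members, with a median of -2.02.

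**Figure D4:**
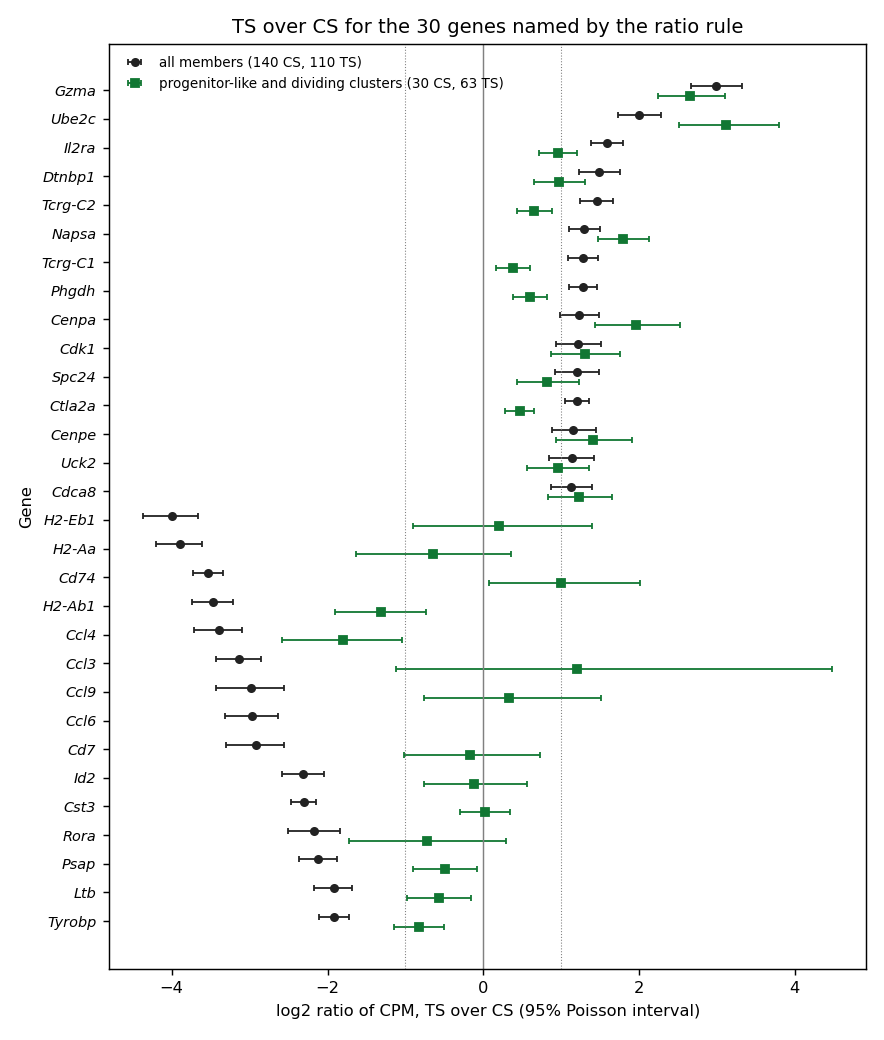
Log2 ratio of CPM, TS over CS (x axis), for 30 genes named by their ratio over all members, 15 at each end (y axis), with exact 95% Poisson intervals; black circles are all members and green squares the progenitor-like and dividing clusters, and dotted lines mark 2-fold. Gzma is at 2.99 and 2.66 in these sets, and Rora is at -2.17 and -0.72. Cd7 is plotted although the rule used it. Ccl6 has no green square because it had 0 UMIs in CS.

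Immediate-early genes respond within minutes to signals and to tissue digestion. Of 17 measured 8 were called lower in TS, 9 stayed within 2-fold and 0 were called higher, with a list median of -0.81. Fos was at 994 CPM in CS against 468 CPM in TS, and Jun at 529 and 203 CPM. Within the progenitor-like and dividing cells 7 of 17 were called lower and 0 higher, with Fos at 931 and 399 CPM and Fosb at 429 and 152 CPM. Fos was also lower in the other barcodes of the same libraries, at 694 CPM in CS against 455 CPM in TS, and in free RNA, at 464 and 342 CPM. Over the list, T-like cells did not share this drop. Of 16 measured genes there 2 were called higher (Fosb and Egr1) and 2 lower, with a list median of -0.04. These calls and the median include the barcode rich in antibody genes described below. Without that barcode, Fos of the T-like cells was 198 CPM for CS against 286.5 for TS. The interval of that log2 ratio spanned 0 (-0.28 to 1.30). Junb went the other way, at 1226 and 982 CPM without that barcode (-0.32, -0.71 to 0.06). Summed over the 20 genes of the list, the few NK-like cells were higher in TS (6497 and 13590 CPM). The ILC-like cells were lower (12880 and 6761 CPM). The handling of the libraries cannot be told apart from the tumor, as each group is 1 library. Of 10 measured NF-kB feedback genes 3 were called lower, including Tnfaip3 (116 and 49.5 CPM), and of 8 measured MHC class I genes 0 were called. Among 9 measured homing and residency genes 5 were called lower, with 2 of 7 alarmin and interleukin 12 family receptors and 0 of 3 checkpoint genes. Over all members none of these lists had a gene called higher. In the T-like cells 3 of 11 homing genes, 1 of 3 alarmin receptors and 4 of 6 checkpoint genes were called higher, and Cd69 and Ikzf2 lower. The share called over all 5269 genes measured in these cells was not worked out. No count of called genes in the T-like cells can therefore be set beside it. Counts there were small, with 5 UMIs of Cd44, 3 of Cxcr3 and 12 of Ctla4 in TS. Those calls include the barcode rich in antibody genes, and without it 3 UMIs of Cd44 and 6 of Ctla4 were left. All 4 UMIs of Tnfrsf4, another of the checkpoint genes called higher, were in 1 TS cell. In the progenitor-like and dividing cells 2 of 6 homing genes (Cd69 and Rgs1), 0 of 3 alarmin receptors and 0 of 2 checkpoint genes were called lower.

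Of 15 measured proliferation genes 4 were called higher in TS (Top2a, Cdk1, Ccnb1 and Birc5), 11 stayed within 2-fold and 0 were called lower, with a list median of 0.74. Cdk1 and Ube2c turned to -0.60 and -0.87 when the rule was applied after thinning. Top2a, a topoisomerase of dividing cells, was at 309.7 CPM in CS against 637 CPM in TS, and Ube2c, which drives exit from mitosis, at 58.6 and 235 CPM. The dividing cluster held 6 members in CS and 27 in TS. Within that cluster Top2a was at 1009 and 1120 CPM and Mki67 at 600.4 and 641 CPM, and within the progenitor-like cluster Top2a was at 172 and 173 CPM. Mki67 was at 71.1 and 123 CPM in the progenitor-like cluster. Of the 15 genes 3 (Cdk1, Ccnb1 and Ccnb2) were called higher in the 2 clusters together, where the list median was 0.06. Napsa, an aspartic protease, Phgdh, the first enzyme of serine synthesis, and Ctla2a, an inhibitor of cathepsins, were also among the 15 highest, at 126, 165 and 221 CPM in CS and 309, 399.6 and 509 CPM in TS.

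A few genes of lymphoid stage, chiefly Dntt, differed between the progenitor-like and dividing cells of TS and those of CS. Dntt was at 423 CPM in CS (378.5 to 470.4 CPM) against 82.8 CPM in TS (68.3 to 99.4 CPM), a log2 ratio of -2.35 (-2.67 to -2.04). It was found in 29 of 30 cells in CS and 18 of 63 in TS, and after thinning to 2000 UMIs in 16 of 30 (53.3%, 34.3 to 71.7%) and 9 of 63 (14.3%, 6.75 to 25.4%). The direction was the same in each cluster, at 531 and 169.8 CPM in the progenitor-like cluster and 157 and 23.2 CPM in the dividing cluster. Notch1, the receptor that commits cells to the T lineage, was at 299 and 115 CPM. Of 7 measured lymphoid progenitor genes Dntt and Notch1 were called lower, 5 stayed within 2-fold and 0 were called higher. Ly6d, which led the progenitor-like cluster as Dntt did, was at 1447 and 857 CPM and stayed within 2-fold. In the dividing cluster Ly6d was at 853 and 850 CPM. As a description only, Il7r, which the rule used, was at 464 and 155 CPM, and Kit, on which the cells were sorted, at 233 and 106 CPM.

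Bcl2, an inhibitor of apoptosis, was at 182 CPM in CS against 362 CPM in TS (log2 ratio 1.00, 0.73 to 1.27, just under the 2-fold call), and it was higher in both clusters, at 201 and 332 CPM and at 135 and 383 CPM. Tcf7 was at 368 and 257 CPM and Bcl11b at 352 and 202 CPM, within 2-fold. Nfkb1, a subunit of NF-kB, was called higher at 127 and 269 CPM, and Nfkbid, an inhibitor of it, was called lower at 109 and 38.5 CPM. Cd69, an early activation marker that keeps lymphocytes in tissue, was at 342 and 159 CPM.

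**Figure D5:**
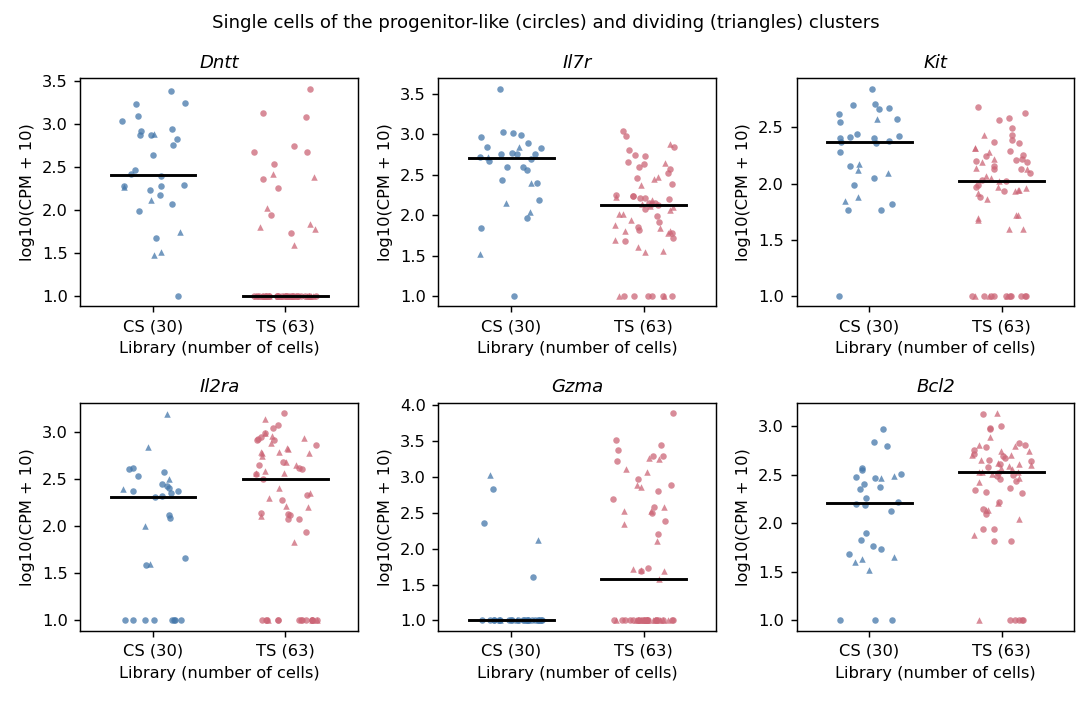
Single cells of the progenitor-like (circles) and dividing (triangles) clusters in CS (30 cells) and TS (63 cells), with log10(CPM + 10) of 6 genes on the y axes; black bars are medians over cells, and the lowest row of points holds cells with no UMI. Dntt is found in 29 CS and 18 TS cells and Gzma in 5 CS and 32 TS cells; cells of a library are not replicates.

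Single cells of a library varied widely within these 2 clusters. Among the CS cells Dntt ran from 0 to 2440 CPM with a median of 247 CPM, and among the TS cells from 0 to 2558 CPM with a median of 0. Il2ra had medians of 197 CPM in CS against 308 CPM in TS and reached 1576 and 1590 CPM. For Gzma the median was 0 in CS and 27.6 CPM in TS, and 1 cell held 32 of the 52 UMIs in CS (61.5%), while the highest cell of TS held 70 of 570 (12.3%). The ranges of the libraries overlapped for each of these genes. Genes of other lineages were detected there to different extents. The 14 NK genes summed to 31.5 CPM in CS against 45.0 CPM in TS, with Ncr1, Eomes and Tbx21 at 0 in both. The 11 mast and basophil genes summed to 416 and 387 CPM, of which Cpa3 gave 388.5 and 348 CPM. Mcpt8, Ms4a2 and Prss34 had 0 UMIs in CS and 12, 1 and 2 in TS, and Fcer1a and Cd200r3 had 0 in both. The 12 dendritic genes summed to 561 and 526 CPM, with Siglech, Xcr1 and Cd209a at 0 in both. Erythroid genes summed to 1091 CPM in CS against 434 CPM in TS, and Ighm was at 232 and 89.3 CPM. Prtn3 and Ctsg of the neutrophil list were called higher, and Pf4, a platelet gene, was called higher from 1 TS cell. The part of free RNA in these levels was not tested.

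T-like cells had similar receptor transcripts in both libraries, although TS cells were shallower, with a median of 4685.5 UMIs against 8298 in CS. The 29 CS cells summed to 237428 UMIs and the 16 TS cells to 99409 UMIs, of which 26115 (26.3%) came from 1 barcode that also held 1952 UMIs of Igkc, 1391 of Ighm and 362 of Jchain, the genes of antibody secretion. Without that barcode Cd3d was at 788 CPM in CS (679 to 909 CPM) against 941 CPM in TS (732.5 to 1191 CPM), and Trac was at 455 and 368 CPM. Cd8a was at 164 and 396 CPM (log2 ratio 1.27, 0.52 to 2.00) and Ltb at 695 and 396 CPM (-0.81, -1.435 to -0.24). Xcl1, a chemokine of cytotoxic cells, had 2 UMIs in CS and 44 in TS, all 44 in 1 cell. These few cells cannot show differences below 2-fold for most genes. Across all members 2 barcodes, both from TS, held over 10000 CPM of Igkc, and the first of them held 1391 of the 3015 Ighm UMIs of TS members.

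Compared with the other barcodes of the same libraries, the spleen members carried transcripts those barcodes nearly lacked. Trbc2 was at 574 CPM in CS members and 2.20 CPM in the other barcodes, and at 523 and 3.84 CPM in TS. Tcf7 was at 243 and 0.972 CPM in CS and 196 and 1.16 CPM in TS. Neither gene was used by the rule, but both are expressed by the cells it picks out, so these values describe the members and were not tested. Kit, in contrast, was at 220.1 CPM in CS members and 171 CPM in the others, and at 127 and 163 CPM in TS.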

How the data were processed

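The authors deposited UMI counts of every barcode of 4 droplet libraries (10x Genomics 3' v3.1), made with Cell Ranger 4.0 and the mm10 genome. These deposited counts were used as they stand, and files of the 4 libraries were read whole. The members, marker lists and gene lists were chosen with earlier results of these data known, so no list is independent evidence. Counts were summed over members per library and given as CPM with exact Poisson 95% intervals, ratios with exact conditional intervals, and shares with Clopper-Pearson intervals. UMIs of 1 pool of cells are not independent samples, so all intervals cover counting error only. A count of 0 was bounded at 3 counts per library, and a ratio was called at 2-fold with a mean of at least 20 CPM. With 1 library per group no test was run.

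Clustering used 2000 variable genes without the 8 genes of the rule, 20 principal components, 15 neighbors and the Leiden method at resolution 1.0. A cluster was named only when fixed markers led it. The genes named were the genes of the rule and of the lists, the 10 that lead each cluster, and the 15 highest and 15 lowest ratios over all members with a mean of at least 100 CPM and the same sign among members with at least 2 other T, NK or ILC genes, without mitochondrial, ribosomal, hemoglobin, immunoglobulin and Xist genes. No doublet caller was run, and removing the 5% of members with the most UMIs was an alternative. Others changed the rule, the scaling, the minimum or the cluster resolution, thinned the members, or subtracted 10% of UMIs by the profile of barcodes with at most 100 UMIs (free RNA). Gene positions are those of GENCODE on GRCm38. Shares of cells with a UMI of Gzma, Il2ra, Dntt, Ncr1 and Nkg7 are also given with each barcode thinned to 2000 UMIs. Other detection counts are unthinned. On simulated counts for 6280 genes, 100 of 100 genes changed 4-fold were called and 0 of 6080 unchanged ones. The remaining genes were changed by less than 4-fold, and all changed genes were drawn from those with at least 100 CPM. The simulation held counting error only, around 1 shared profile, so it checks the calculation of the call. It cannot give a rate of false calls between single libraries or mixtures of cell types. Python 3.11.15, NumPy 2.4.6, pandas 2.3.3, SciPy 1.17.1, scikit-learn 1.9.0, igraph 0.11.9 and matplotlib 3.10.9 were used.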

Additional observations from a re-analysis of the deposited data

How the results depend on the processing

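No paired analysis was possible because each group is 1 library. Of 43 named genes, all kept their log2 ratio within the counting interval with at least 500 genes per barcode and with 2 other scalings. Requiring 2 further T, NK or ILC genes removed none of the 323 members, so it tested nothing. With 10% of UMIs subtracted as free RNA 42 of the 43 kept it, and Ube2c went to 2.54. With at most 5% mitochondrial UMIs 42 kept it, and without the 5% of members with the most UMIs 40 did. Fewer did elsewhere: 22 of 43 without Nkg7, 20 with at least 4 of the 8 genes and 15 with single-member means. Only 9 did with members thinned and 7 with the rule applied after thinning. In the lymphoid clusters 17 kept it, and in the progenitor-like and dividing clusters 7 of 41. Other settings changed values as follows, and the cause was not tested. The shares of members in CS, TS, CBM and TBM were 2.16, 1.27, 0.114 and 0.0461% with at least 4 of the 8 genes, 1.46, 0.310, 0.230 and 0.186% with the rule applied after thinning to 2000 UMIs, and 2.81, 1.41, 0.229 and 0.0922% without Nkg7, a choice made after seeing the data. The CS share was 3.58% with at least 500 genes.

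Genes called higher in TS numbered 221 with at least 4 genes, 529 with the thinned rule, 189 without Nkg7, 163 with scaling that left out mitochondrial, ribosomal and hemoglobin genes, 201 with the mean of single-member CPM, 20 at a mean of 100 CPM, 731 with no minimum, and 577 with thinned members. Genes called lower numbered 621 with the thinned rule, 63 at a mean of 100 CPM, 1932 with no minimum and 804 with thinned members.

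The NK list median was -1.945 with the thinned rule, -2.08 with single-member means and -2.09 with thinned members. The gamma-delta median was -0.18 with the thinned rule and 1.37 at a mean of 100 CPM. The proliferation median was 0.11 with the thinned rule, 1.09 with single-member means, 1.155 with thinned members, 0.47 in the lymphoid clusters and 0.059 in the progenitor-like and dividing clusters. The immediate-early median was -0.46 with the thinned rule, -1.09 without Nkg7, -0.98 with single-member means and -1.03 in the lymphoid clusters.

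Directions turned for some genes. Trbc1 went from -0.12 to 0.15 with single-member means and to 0.31 with thinned members. Without the 5% of members with the most UMIs Phgdh was at 1.46, Top2a at 1.33 and Ccl5 at -2.25, and with at most 5% mitochondrial UMIs Psap was at -1.75, all in the direction of their main values. With at least 4 genes the log2 ratios were 0.85 for Ccl3, 1.37 for Ccl9, 3.06 for Ccl6 and 1.47 for Gzmb. With the thinned rule they were -0.87 for Ube2c, -0.054 for Tcrg-C2, -0.35 for Cenpa, -0.60 for Cdk1, -1.13 for Spc24, -1.62 for Cdca8, 0.19 for Cd74, 0.11 for H2-Ab1 and 0.24 for Ccl3. Without Nkg7 Gzmb was at 0.66. In the lymphoid clusters, chosen after seeing the data, they were 0.063 for Ccl3, 0.71 for Ccl9, 0.46 for Ccl6, 0.054 for Cst3 and 1.53 for Gzmb. In the progenitor-like and dividing clusters, also chosen afterwards, they were 0.20 for H2-Eb1, 0.99 for Cd74, 1.20 for Ccl3, 0.33 for Ccl9, 0.017 for Cst3, 2.45 for Gzmb and 0.13 for Ccl5. At resolution 0.5 the ILC-like and dendritic-like cells fell in 1 cluster of 38 members, 30 of them from CS, led by Cd74 and H2-Aa, the NK-like cells joined the T-like and dividing clusters, and the lymphoid share of CS members was 70.7% with that cluster counted as lymphoid. With members thinned to 5000 UMIs, 16.5% in CS and 49.5% in TS had an Il2ra UMI, and 30.5% in TS had a Gzma UMI. With 1 library per group, none of these values has a replicate error.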
